A study of Mus musculus with 52 samples.

Results

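Cultured mouse astrocytes that lack Apoe were compared with wild-type astrocytes after both had been given oleic acid, a monounsaturated fatty acid. The comparison used 6 of the 52 RNA libraries of a study of lipid-laden astrocytes in epilepsy. It set 3 libraries labelled APOE KO astrocyte, oleic acid, against 3 labelled wild type astrocyte, oleic acid, chosen by genotype and treatment alone. Both are C57BL/6 primary astrocytes, and the labels name no other allele or agent. The dose of oleic acid, the time with it, the brain region and age of the donors, and how the knockout was made are not stated in any source used here. Nothing in the labels ties the libraries to separate cultures or animals. The p-values therefore reflect only how much libraries vary within groups, and that variation may be technical. It was estimated over all 27 astrocyte libraries in 9 groups, not over these 6 alone. The comparison asks how the genotypes differ while fatty acid is supplied from outside. The same genotype comparison in untreated cells, with palmitic acid (a saturated fatty acid) and with medium from neurons shares no library with it and is given at the end.

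Apoe encodes apolipoprotein E, the main protein of the lipoprotein particles that astrocytes release to carry cholesterol and phospholipid to neurons. Astrocytes take up fatty acids, store them as triglyceride in lipid droplets and burn them in mitochondria and peroxisomes. When sterol in the endoplasmic reticulum runs low, the transcription factor SREBP2 switches on the enzymes of cholesterol synthesis. When sterol is ample, the LXR receptors switch on sterol exporters.

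Apoe (chr7:19696109-19699188, mm10, GENCODE M21) was read at 68.2, 72.9 and 71.4 TPM (transcript abundance scaled to the same total in each library) in knockout libraries, against 3203, 3438 and 3065 TPM in wild-type libraries. Knockout libraries thus held 2.19% of the wild-type level (-5.49 ± 0.10 log2, SE, limma adjusted p = 3.65e-20), and all 3 fitted their label. Whether the remaining reads lie in the deleted part was not analysed here. Markers of astrocytes were present in both groups: 22 of them summed to 984 to 1079.6 TPM in knockout and 1712 to 1734 TPM in wild-type libraries. Other cells were represented too. Microglial markers summed to 1397 to 1512 TPM in knockout and 1077 to 1199 TPM in wild-type libraries (20 genes, with Siglech at 0), and those of mural cells and fibroblasts to 4336 to 5043 TPM in knockout and 3822 to 4298 TPM in wild-type libraries (18 genes, led by Acta2 and Tagln). Of 18 neuronal markers, 13 stayed under 1 TPM in all 6 libraries and Slc17a6 and Slc32a1 were listed at 0. The other members reached 1 TPM in at least 1 library, and Stmn2 lay far above it in all 6, with values given below. Of 18 oligodendrocyte markers, 10 stayed under 1 TPM in all 6 libraries and Mobp and Opalin were at 0. Of 14 endothelial markers, 6 did so, with Cldn5 at 0. In each list 10 markers were tested with limma. Of the oligodendrocyte ones 4 were higher in knockout and 3 lower, and of the endothelial ones 3 were higher and 2 lower. In bulk RNA, fewer cells of a type and less RNA per cell cannot be told apart. Knockout replicate 1 stood apart in chemokine and interferon genes, and 340 genes lay over 2-fold from the mean of the other knockout libraries, against 251 and 279 for replicates 2 and 3. Wild-type replicate 2 had 298 such genes, against 244 and 268 for the other wild-type libraries, and the widest spread of log2 differences, an SD of 0.414 against 0.313 to 0.370 in the other 5. Both libraries followed transcript length: the median log2 deviation from the mean of the 6 libraries was 0.04 in knockout replicate 1 and 0.09 in wild-type replicate 2 for transcripts up to 1000 bases, and -0.18 and -0.16 above 12000 bases, where wild-type replicates 1 and 3 were at 0.15 each. The part of this in the results was not tested. Mitochondrial genes took 4.04% to 4.53% of TPM in knockout libraries, against 3.98%, 2.96% and 3.95% in wild-type libraries, with replicate 2 the lowest. Genes of the sex chromosomes differed as well. Ddx3y, on the Y chromosome, had 15.2, 14.2 and 14.8 TPM in knockout libraries, against 1.27, 0.52 and 1.35 TPM in wild-type libraries, and Xist, expressed from the inactive X, had 2.12, 2.18 and 2.72 TPM in knockout libraries, against 13.5, 6.57 and 15 TPM in wild-type libraries. The sex makeup of the cultures and the genotype cannot be told apart. Depth is unknown, since the values are in TPM.

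Of 16161 genes tested with limma on log2(TPM + 1), 2383 were higher and 2995 lower in knockout than in wild-type astrocytes under oleic acid (33.3% of genes called at an adjusted p under 0.05, 14.7% higher and 18.5% lower). With median-ratio scaling the split was 2747 higher and 2450 lower, so which direction held more genes depends on the scaling. At a change of at least 2-fold the count was 450 higher and 208 lower. The libraries of the groups did not overlap for 6977 genes (43.2%). The median over all tested genes was -0.01 log2, so a list is read here against that value and against these shares.

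The genes named next had the largest falls among genes above the median level whose groups do not overlap. Apoa1, the main protein of high-density lipoprotein, had 4.26, 4.29 and 5.05 TPM in knockout libraries, against 36.9, 38.6 and 38.8 TPM in wild-type libraries. It fell by 2.82 ± 0.19 log2 (limma adjusted p = 3.17e-10). Nr4a1, an immediate early nuclear receptor, had 9.41, 12.9 and 14.1 TPM in knockout libraries, against 97.7, 83.3 and 81 TPM in wild-type libraries, and fell by 2.76 ± 0.15 log2 (limma adjusted p = 1.73e-11). Gfap, the astrocyte intermediate filament, had 100.1, 103 and 108 TPM in knockout libraries, against 559, 593 and 539.6 TPM in wild-type libraries, a 5.43-fold lower mean in knockout (-2.43 ± 0.08 log2, limma adjusted p = 6.22e-15). Kcnj10, the Kir4.1 potassium channel of astrocytes, had 12.9, 15.9 and 17 TPM in knockout libraries, against 87.4, 76.1 and 84.8 TPM in wild-type libraries. Lcat, which esterifies cholesterol on lipoprotein particles, had 12.2, 15 and 16.4 TPM in knockout libraries, against 65.2, 71.3 and 70.7 TPM in wild-type libraries. They differed by -2.37 and -2.18 log2, and knockout replicate 1 was the lowest library for both. Slc38a3, a glutamine transporter, fell to 66.5 ± 10.8 TPM in knockout, against 258 ± 19 TPM in wild-type libraries (mean ± SD, n = 3 each). The astrocyte receptor gene Gpr37l1, the imprinted gene Mest, the cortical transcription factor gene Lhx2, Six3os1 and Sez6 fell by 1.58 to 1.95 log2. Six3os1 is transcribed opposite Six3, and whether counting used the strand is not given, so their reads cannot be told apart.

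The largest rises were taken under the same limits of level and overlap. Irx1, a homeobox factor of midbrain and hindbrain, had 71.8, 103 and 101 TPM in knockout libraries, against 13.4, 18.8 and 16.9 TPM in wild-type libraries, and rose by 2.41 ± 0.14 log2 (limma adjusted p = 5.1e-11). Spp1, the secreted phosphoprotein osteopontin, had 907, 751 and 856 TPM in knockout libraries, against 206, 132 and 178 TPM in wild-type libraries, and rose by 2.30 ± 0.22 log2 (limma adjusted p = 4.84e-08). Col1a1, a chain of type I collagen, had 489, 609 and 637 TPM in knockout libraries, against 128, 147 and 136 TPM in wild-type libraries, which made its mean 4.22 times the wild-type one. Igf2, an imprinted fetal growth factor, had 79.6, 86.3 and 77.3 TPM in knockout libraries, against 17.6, 19 and 17 TPM in wild-type libraries, and rose by 2.12 ± 0.07 log2 (limma adjusted p = 1.23e-14). Within each group the libraries of Igf2 lay close together, and those of Spp1 were lowest in replicate 2 of both genotypes. Mmp3, a matrix metalloproteinase, had 197, 103 and 107 TPM in knockout libraries, against 23.4, 25.7 and 24.2 TPM in wild-type libraries, and C3, the central complement component, had 190.2, 61.5 and 62.1 TPM in knockout libraries, against 20.1, 19.3 and 20.1 TPM in wild-type libraries. In both, knockout replicate 1 was the highest library, and without it they still rose, by 2.06 and 1.59 log2 (limma adjusted p = 8.31e-10 and 2.76e-06). Trib2, Rgs16, Fgf7, Tnfrsf11b and Lurap1l rose by 2.06 to 2.16 log2. The mitochondrial gene mt-Atp6, which overlaps mt-Atp8 and can share its reads, had 165, 272 and 344 TPM in knockout libraries, against 96.7, 28.2 and 52.5 TPM in wild-type libraries, a wide spread within both groups.

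**Figure D1:**
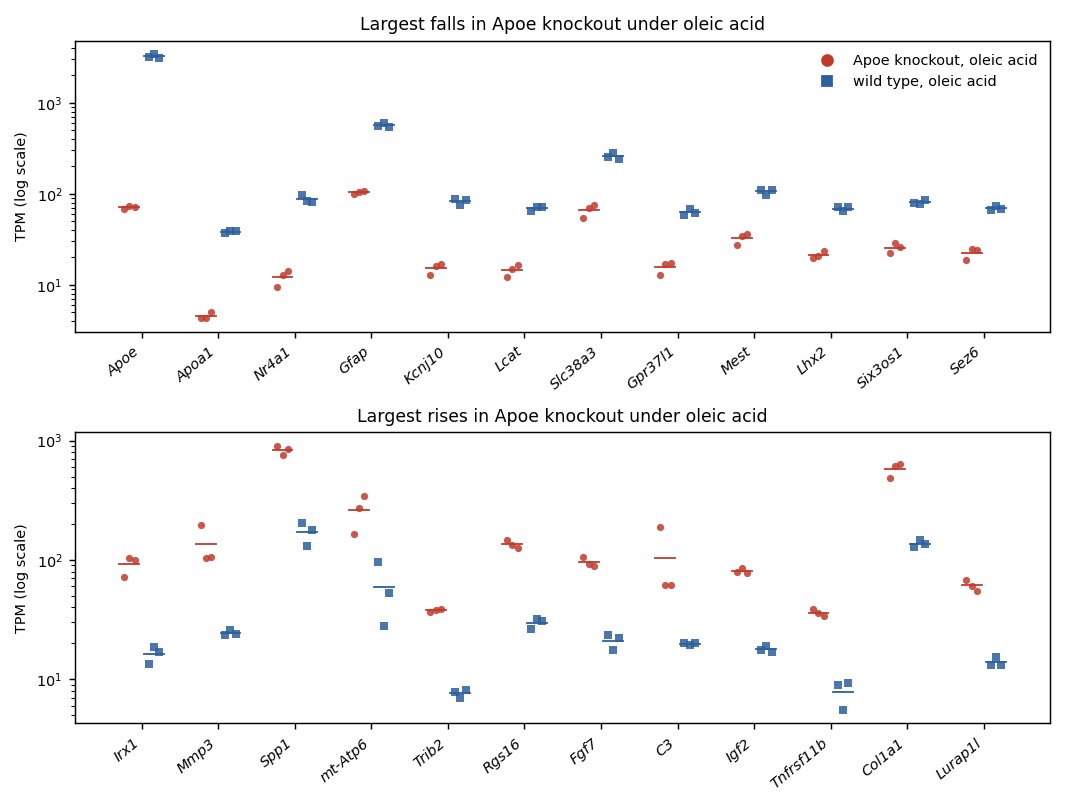
TPM on a log axis for the 12 largest falls (top) and the 12 largest rises (bottom) chosen by rule, with a point for each library and a line at the mean of 3, knockout as circles left of wild type as squares. The rule took only genes whose groups do not overlap. Relative to its mean, the knockout spread is widest for C3, Mmp3 and mt-Atp6.

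**Figure D2:**
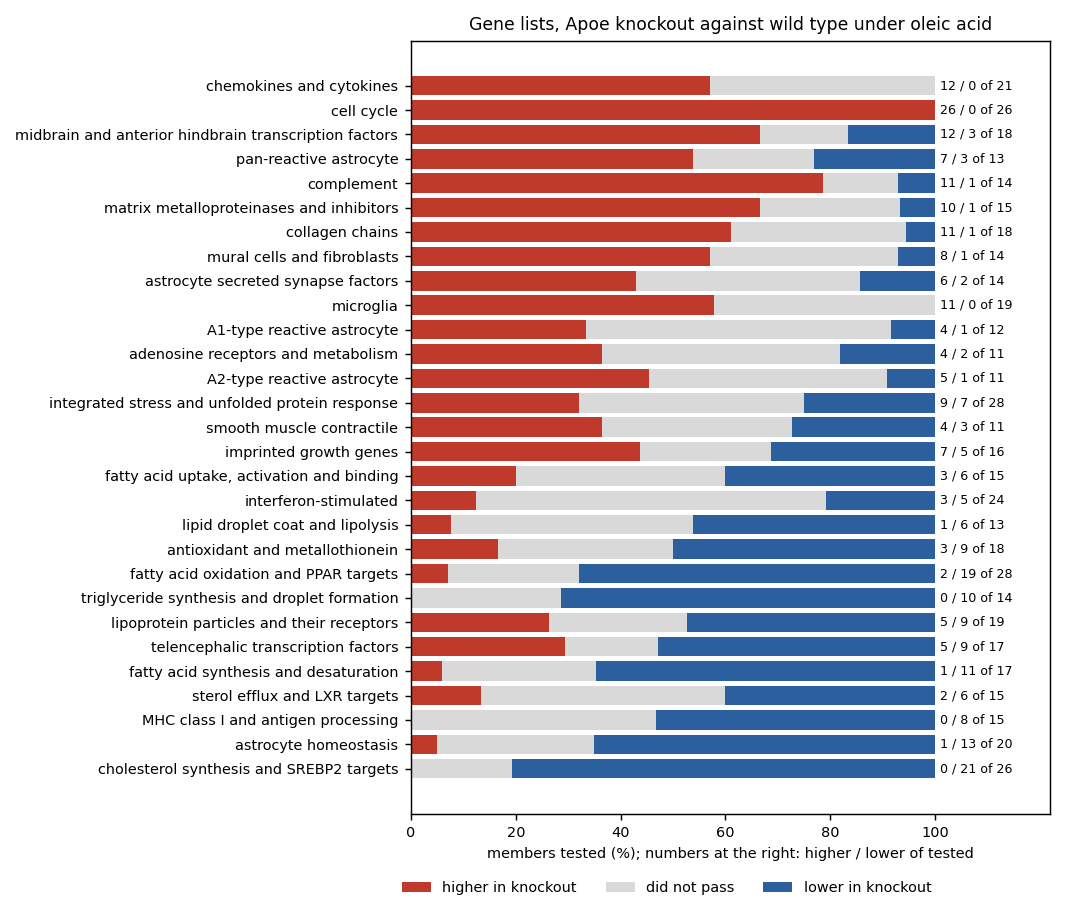
Share of tested members of 29 of the 38 gene lists that were higher, lower or did not pass limma's test in knockout against wild type under oleic acid, ordered by the median log2 fold change of the list. The lists of sex chromosome and HOX genes, neurons, endothelium, oligodendrocytes, phagocytes, meninges, choroid plexus and Bergmann glia are left out. Choroid plexus and ependyma had 2 higher and 3 lower of 9 tested, Bergmann glia and granule lineage 2 and 2 of 7, and neurons 1 and 1 of 7. All 26 cell cycle genes were higher and 21 of 26 cholesterol synthesis genes lower, against 14.7% higher and 18.5% lower over all tested genes.

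Most genes of cholesterol synthesis were lower in the knockout. Of 26 SREBP2 targets and enzymes tested, none was higher, 21 lower and 5 did not pass, with a median of -0.70 log2. Msmo1, a sterol methyl oxidase, had 40.7, 36.6 and 39.5 TPM in knockout libraries, against 91.1, 80.9 and 92.6 TPM in wild-type libraries, and fell by 1.16 ± 0.07 log2 (limma adjusted p = 4.81e-11). Sqle, squalene epoxidase, had 40.9, 40.8 and 46.4 TPM in knockout libraries, against 85.3, 77.9 and 82.4 TPM in wild-type libraries. In each of them the knockout libraries lay at about the same level as one another and below all wild-type libraries. Insig1, which holds SREBP2 in the endoplasmic reticulum and is itself a target, had 33.3, 34.4 and 36.5 TPM in knockout libraries, against 90.3, 76.8 and 90.1 TPM in wild-type libraries, and Cyp51, lanosterol demethylase, had 23.7, 21.5 and 20.7 TPM in knockout libraries, against 48.5, 46 and 50.8 TPM in wild-type libraries. Srebf2, the gene of SREBP2 itself, had 57.4, 69.4 and 67.2 TPM in knockout libraries, against 89.9, 101 and 88.9 TPM in wild-type libraries, and fell by 0.52 log2. Those that did not pass included Mvk, Pmvk, Ebp and Tmem97, at -0.21 to 0.09 log2. Idi1 and Hmgcs1 were lowest among wild-type libraries in replicate 2, as their values show. Idi1, isopentenyl diphosphate isomerase, had 10.4, 10.3 and 10.1 TPM in knockout libraries, against 27.8, 13.2 and 23 TPM in wild-type libraries, and Hmgcs1, HMG-CoA synthase, had 39.1, 33.3 and 33.8 TPM in knockout libraries, against 81.8, 50.9 and 77.5 TPM in wild-type libraries. Without wild-type replicate 2 their falls were 1.22 and 1.15 log2.

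The promoter of Hmgcs1, which makes the HMG-CoA that feeds the pathway, is shown because SREBP2 is known to act there. It is the RefSeq sequence from 250 bases before to 50 after the start of the gene (GRCm38.p6, chr13:119690101-119690400, + strand), with the sterol regulatory motif TCACNCCAC in capitals. Both strands were searched.
Hmgcs1: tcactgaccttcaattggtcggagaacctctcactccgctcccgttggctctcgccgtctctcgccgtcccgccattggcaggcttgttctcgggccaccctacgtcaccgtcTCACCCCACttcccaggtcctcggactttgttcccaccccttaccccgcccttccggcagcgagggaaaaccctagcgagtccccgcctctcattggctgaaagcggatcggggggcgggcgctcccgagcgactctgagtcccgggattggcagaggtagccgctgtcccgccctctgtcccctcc
Of 18 members with a RefSeq promoter, Hmgcs1 alone held this motif (5.56%), against 1.44% of 27025 genes. The absence of these letters in the other windows says nothing of SREBP2.

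**Figure D3:**
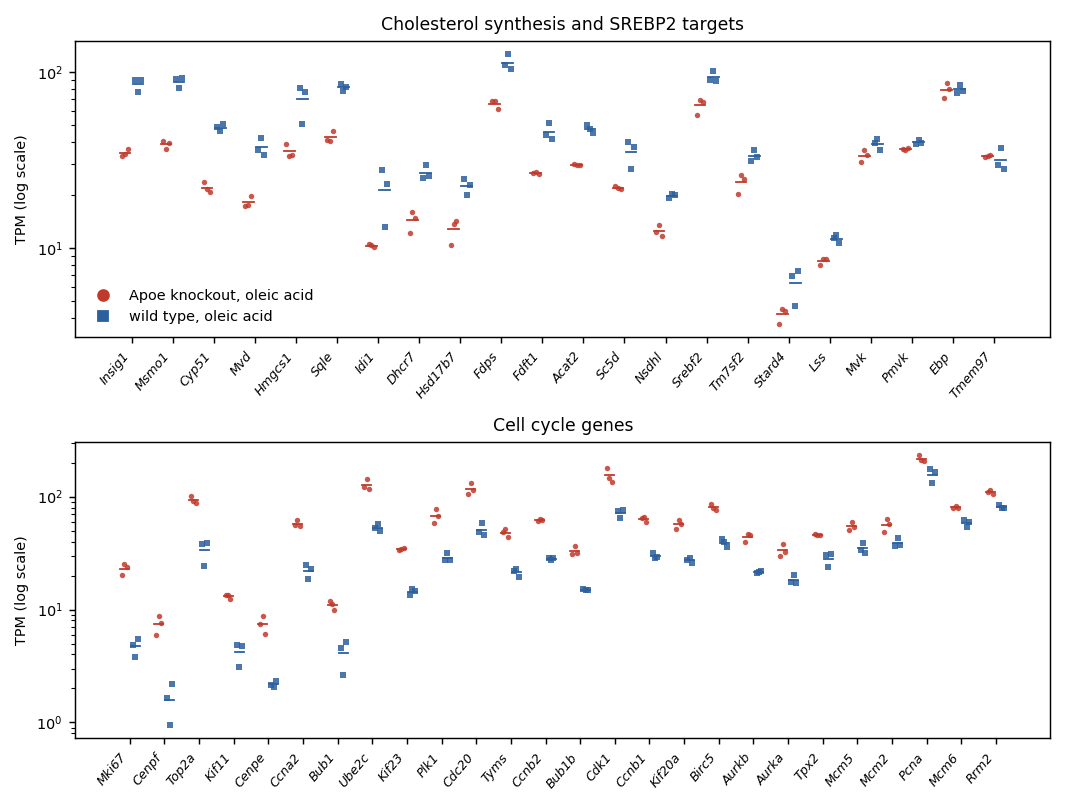
TPM on a log axis of 22 of the 26 tested cholesterol synthesis genes and SREBP2 targets (top, ordered from the largest fall) and of the 26 cell cycle genes (bottom, ordered from the largest rise), with a point per library and lines at the means, knockout left of wild type. The knockout means lie below the wild-type means from Insig1 to Pmvk, while all cell cycle means lie above.

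Genes of lipoprotein particles moved both ways. Of 19 tested, 5 were higher, 9 lower and 5 did not pass, with a median of -0.31 log2. Besides Apoe and Lcat, the lower members included the sorting receptor gene Sorl1, with 31.3, 41.5 and 43.9 TPM in knockout libraries, against 58.4, 64.6 and 65.1 TPM in wild-type libraries, and Lrpap1, a chaperone of lipoprotein receptors. Apod, an apolipoprotein of the lipocalin family, had 7.36, 7.31 and 8.38 TPM in knockout libraries, against 0.94, 1.16 and 1.41 TPM in wild-type libraries, and its mean rose to 6.57 times the wild-type one (limma adjusted p = 2.23e-11). Lrp1, a large receptor for Apoe particles, had 411, 492 and 544 TPM in knockout libraries, against 314, 347 and 323 TPM in wild-type libraries, and rose by 0.55 ± 0.08 log2 (limma adjusted p = 8.15e-06). Knockout and wild-type libraries did not overlap in either gene. Apoc2, Vldlr and Pltp were higher as well, by 0.24 to 1.12 log2, and the call of Pltp was lost when any of 4 libraries was left out. Apoc2 lies 0.018 Mb from Apoe. It differed by -1.70 log2 with palmitic acid (limma adjusted p = 2.09e-06) and did not pass untreated or with medium from neurons. Clu, another astrocyte apolipoprotein, had 709.6, 719 and 736 TPM in knockout libraries, against 659, 699 and 661 TPM in wild-type libraries, groups that did not overlap but differed by 0.10 log2, which did not pass (limma adjusted p = 0.171).

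Among 15 genes of sterol efflux and LXR targets, 2 were higher, 6 lower and 7 did not pass, with a median of -0.35 log2. The exporter gene Abca1 had 36, 35.7 and 39 TPM in knockout libraries, against 57.5, 36.6 and 54.7 TPM in wild-type libraries, and differed by -0.39 ± 0.19 log2, which did not pass (limma adjusted p = 0.123), and Abcg1 stayed under 3 TPM in all 6 libraries. Npc1, which moves cholesterol out of lysosomes, had 31.4, 38.8 and 40.6 TPM in knockout libraries, against 57.1, 57.5 and 56.2 TPM in wild-type libraries, and fell by 0.62 ± 0.09 log2 (limma adjusted p = 7.63e-06). Soat1, which esterifies cholesterol for storage, and Cyp46a1, the brain's cholesterol 24-hydroxylase, fell by 0.42 and 0.76 log2. The higher members were Ch25h and Mylip. Ch25h, cholesterol 25-hydroxylase, had 14.6, 3.75 and 3.41 TPM in knockout libraries, against 0.47, 0.17 and 0.06 TPM in wild-type libraries. Mylip, a ubiquitin ligase switched on by LXR, had 8.37, 10.1 and 10.2 TPM in knockout libraries, against 5.58, 5.19 and 5.87 TPM in wild-type libraries. Ch25h was highest in knockout replicate 1, and rose by 1.91 log2 without it. In a fit of the 6 oleic acid libraries alone, 2 of these genes were lower in place of 6.

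Plin2, the main coat protein of astrocyte lipid droplets, did not differ beyond the spread between libraries. It had 173, 186 and 184 TPM in knockout libraries, against 179, 196 and 175 TPM in wild-type libraries (-0.02 ± 0.06 log2, limma adjusted p = 0.838). Untreated libraries had 87.6, 87.3 and 93.9 TPM in knockout and 81.2, 87.1 and 84.6 TPM in wild type. Of 13 genes of droplet coat and lipolysis, 1 was higher, 6 lower and 6 did not pass, with a median of -0.15 log2. Plin3, another coat protein, had 30.1, 31.9 and 32.2 TPM in knockout libraries, against 39.8, 46.1 and 42 TPM in wild-type libraries, and fell by 0.43 ± 0.06 log2 (limma adjusted p = 1.35e-05). Pnpla2, the lipase that opens triglyceride breakdown, had 55.3, 53.1 and 55.1 TPM in knockout libraries, against 71.3, 77 and 70.5 TPM in wild-type libraries, and fell by 0.41 ± 0.07 log2 (limma adjusted p = 4.97e-05). Its inhibitor G0s2 went the other way, with 2.53, 5.04 and 4.81 TPM in knockout libraries, against 1.46, 0.84 and 1.78 TPM in wild-type libraries, and a rise of 1.10 log2 (limma adjusted p = 0.000226). The count of lower genes was 3 without knockout replicate 1 and 3 in a fit of the 6 libraries alone.

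Most genes of triglyceride synthesis were lower in the same libraries. Of 14 genes tested, none was higher, 10 lower and 4 did not pass, with a median of -0.31 log2. Gpat3, a glycerol phosphate acyltransferase, had 5.39, 5.04 and 6.03 TPM in knockout libraries, against 12.1, 11.4 and 12.7 TPM in wild-type libraries, and fell by 1.01 ± 0.09 log2 (limma adjusted p = 3.53e-08). Lpin3, a phosphatidate phosphatase, and Gpam, the mitochondrial acyltransferase, fell by 0.85 and 0.66 log2, and Bscl2, the seipin gene of droplet budding, by 0.49 log2. Dgat1 and Dgat2, of the final step, differed by -0.09 and -0.16 log2 and did not pass (limma adjusted p = 0.557 and 0.554). A fit of the 6 libraries alone called 5 of the 14 lower.

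Genes of de novo fatty acid synthesis and desaturation followed the same direction. Of 17 genes tested, 1 was higher, 11 lower and 5 did not pass, with a median of -0.35 log2. Fads2, the delta-6 desaturase, had 149, 167 and 172 TPM in knockout libraries, against 255, 281 and 248 TPM in wild-type libraries, and fell by 0.68 ± 0.05 log2 (limma adjusted p = 1.06e-09). Scd2, a stearoyl-CoA desaturase that makes oleic acid itself, had 203, 239.6 and 251 TPM in knockout libraries, against 388, 371 and 372 TPM in wild-type libraries, and fell by 0.71 ± 0.07 log2 (limma adjusted p = 7.7e-08). Fads1, Acss2 and Fasn, fatty acid synthase, fell by 0.53 to 0.76 log2, with no overlap between groups. Thrsp, a lipogenic target of thyroid hormone, had 1.93, 1.84 and 1.15 TPM in knockout libraries, against 5.77, 7.88 and 7.1 TPM in wild-type libraries, the largest fall of the list at -1.59 log2. The exception was Srebf1, the gene of the lipogenic factor SREBP1, which had 42.5, 45 and 49.4 TPM in knockout libraries, against 36.3, 40.3 and 34.3 TPM in wild-type libraries, and rose by 0.30 ± 0.07 log2 (limma adjusted p = 0.00268). Scd1 differed by -0.08 log2 and did not pass.

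Genes of mitochondrial and peroxisomal fatty acid oxidation were mostly lower, by small steps. Of 28 oxidation genes and targets of the PPAR receptors, which fatty acids activate, 2 were higher, 19 lower and 7 did not pass, with a median of -0.29 log2. Cpt1a, which admits fatty acids to mitochondria, had 88.5, 112 and 117 TPM in knockout libraries, against 150.2, 151 and 149 TPM in wild-type libraries, and fell by 0.51 ± 0.08 log2 (limma adjusted p = 2.43e-05). Acadl, a long-chain acyl-CoA dehydrogenase, had 95.4, 93.6 and 93.4 TPM in knockout libraries, against 133, 114 and 132 TPM in wild-type libraries, and fell by 0.42 ± 0.06 log2 (limma adjusted p = 1.03e-05). Ehhadh, of peroxisomal oxidation, Acot1, an acyl-CoA thioesterase, and Cpt1c fell by 0.51 to 0.84 log2. Acot1 has a close copy, Acot2, with which it can share reads and which differed by -0.15 log2. Angptl4 and Pparg were higher. Angptl4, a PPAR target that inhibits lipoprotein lipase, had 29.4, 19.1 and 19.1 TPM in knockout libraries, against 7.8, 8.54 and 9.32 TPM in wild-type libraries, and rose by 1.27 ± 0.15 log2 (limma adjusted p = 8.5e-07). Pparg, the gene of a PPAR receptor, had 6.74, 7.24 and 6.83 TPM in knockout libraries, against 3.4, 2.53 and 3.17 TPM in wild-type libraries, and rose by 0.98 ± 0.14 log2 (limma adjusted p = 8.16e-06). Genes of uptake, activation and binding of fatty acids moved both ways: of 15 tested, 3 were higher, 6 lower and 6 did not pass, with a median of -0.14 log2. Fabp5, a fatty acid binding protein, had 79.4, 106 and 99.3 TPM in knockout libraries, against 65.5, 68 and 67.5 TPM in wild-type libraries, and Slc27a1, a fatty acid transporter, had 41.1, 50 and 56.5 TPM in knockout libraries, against 72.3, 88.3 and 73.6 TPM in wild-type libraries. They changed by 0.49 and -0.66 log2. Dbi, the acyl-CoA binding protein, had 1298, 1156 and 1186 TPM in knockout libraries, against 2163, 1744 and 1931 TPM in wild-type libraries, and fell by 0.68 ± 0.15 log2 (limma adjusted p = 0.00107). The list's median was 0.02 without wild-type replicate 1.

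Genes of mature astrocyte function were lower in the knockout. Of 20 tested, 1 was higher, 13 lower and 6 did not pass, with a median of -0.54 log2. Mlc1, a membrane protein of astrocyte endfeet, had 219.8, 222 and 224 TPM in knockout libraries, against 404, 433 and 392 TPM in wild-type libraries, and fell by 0.88 ± 0.06 log2 (limma adjusted p = 2.74e-10). Glul, glutamine synthetase, had 116, 114 and 117 TPM in knockout libraries, against 175, 173 and 171 TPM in wild-type libraries, and fell by 0.58 ± 0.05 log2 (limma adjusted p = 5.94e-09). Slc1a3, the glutamate transporter GLAST, had 57, 58.8 and 60.5 TPM in knockout libraries, against 138, 110.0 and 136 TPM in wild-type libraries, with wild-type replicate 2 lowest in its group. It fell by 1.10 ± 0.12 log2 (limma adjusted p = 4.44e-07). The adhesion molecule gene Hepacam and the sodium pump gene Atp1b2 fell by 0.99 and 1.00 log2. Aqp4, the water channel, had 109.7, 88.4 and 91.4 TPM in knockout libraries, against 106, 67.8 and 109 TPM in wild-type libraries, overlapping groups that differed by 0.06 log2 (limma adjusted p = 0.834). S100b was the member that rose, by 0.45 log2, and its call was lost without 1 of the 6 libraries. The summed microglial and fibroblast markers given above were higher in knockout libraries, and their part in this result was not tested.

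Reactive astrocytes are usually recognised by a rise of Gfap and Vim and of secreted inflammatory proteins. Of 13 pan-reactive genes, 7 were higher, 3 lower and 3 did not pass, with a median of 0.79 log2. Gfap, Vim and S1pr3 were the lower ones: Vim, the other main intermediate filament, had 6747, 7228 and 7239 TPM in knockout libraries, against 8080.4, 8773 and 8265 TPM in wild-type libraries, and fell by 0.24 ± 0.04 log2 (limma adjusted p = 7.11e-05). Timp1, an inhibitor of matrix metalloproteinases, had 899.8, 742 and 756 TPM in knockout libraries, against 212, 248 and 227 TPM in wild-type libraries, and rose by 1.80 ± 0.08 log2 (limma adjusted p = 8.06e-13). Hspb1, a small heat shock protein, had 152, 177 and 169 TPM in knockout libraries, against 53.5, 67 and 59.3 TPM in wild-type libraries, and rose by 1.46 ± 0.09 log2 (limma adjusted p = 4.25e-11). Serpina3n, a serine protease inhibitor, had 39.5, 36.7 and 36.6 TPM in knockout libraries, against 20.5, 18.1 and 18.8 TPM in wild-type libraries, higher in every knockout library than in any wild-type one. Lcn2, lipocalin 2, had 81.7, 6.55 and 5.68 TPM in knockout libraries, against 3.63, 2.85 and 2.54 TPM in wild-type libraries, with knockout replicate 1 over 10 times the others. Of 12 genes of the inflammatory A1 type, 4 were higher, 1 lower and 7 did not pass, with a median of 0.27 log2, and of 11 of the A2 type, 5 were higher, 1 lower and 5 did not pass, with a median of 0.09 log2. Ptx3, pentraxin 3, of the A2 list had 125, 73.5 and 63.7 TPM in knockout libraries, against 24.9, 22.2 and 24.1 TPM in wild-type libraries, and rose by 1.78 ± 0.15 log2 (limma adjusted p = 5.94e-09), while the cytokine gene Clcf1 had 115, 124 and 121 TPM in knockout libraries, against 207, 206 and 199 TPM in wild-type libraries, and fell by 0.76 ± 0.05 log2 (limma adjusted p = 1.11e-10). A fit of the 6 libraries alone called 4 pan-reactive genes higher in place of 7.

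Genes of astrocyte and matrix proteins that act on synapses changed in both directions. Of 14 tested, 6 were higher, 2 lower and 6 did not pass, with a median of 0.44 log2. Thbs2, a thrombospondin, had 138, 163 and 163 TPM in knockout libraries, against 65.5, 64.1 and 68.6 TPM in wild-type libraries, and rose by 1.21 ± 0.08 log2 (limma adjusted p = 2.09e-10). Tnc, the matrix protein tenascin C, had 525, 631 and 655 TPM in knockout libraries, against 262, 268 and 263 TPM in wild-type libraries, and rose by 1.18 ± 0.08 log2 (limma adjusted p = 2e-10). Gpc4, a glypican that recruits glutamate receptors, had 159, 191 and 195 TPM in knockout libraries, against 391, 367 and 381 TPM in wild-type libraries, and fell by 1.06 ± 0.06 log2 (limma adjusted p = 2.17e-11). Sparc and Sparcl1 rose by 0.69 and 0.63 log2, and Bcan, brevican, fell by 1.28 log2.

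Chemokine and cytokine genes were higher in the knockout, and for several of them 1 library set the size. Of 21 tested, 12 were higher, none lower and 9 did not pass, with a median of 1.14 log2. Some were even across knockout libraries. Cxcl12, a chemokine of the meninges and vessels, had 76.1, 76.5 and 74.6 TPM in knockout libraries, against 32.6, 34.1 and 34.7 TPM in wild-type libraries, and rose by 1.14 ± 0.08 log2 (limma adjusted p = 6.3e-10). Il33, an alarmin of glia, had 177, 194 and 191 TPM in knockout libraries, against 66.6, 52 and 65.3 TPM in wild-type libraries, and rose by 1.60 ± 0.13 log2 (limma adjusted p = 5.81e-09). Cx3cl1, fractalkine, had 247, 202 and 207 TPM in knockout libraries, against 111, 127 and 114 TPM in wild-type libraries, again without overlap. Others were spread: Ccl2, which attracts monocytes, had 266, 14.2 and 12.8 TPM in knockout libraries, against 3.65, 3.74 and 2.09 TPM in wild-type libraries, and Ccl3 had 66.7, 7.51 and 10.5 TPM in knockout libraries, against 2.12, 1.92 and 2.28 TPM in wild-type libraries. Ccl4 had 41.3, 5.88 and 7.71 TPM in knockout libraries, against 1.2, 0.81 and 0.32 TPM in wild-type libraries. In all 3 genes, knockout replicate 1 was the highest library, and replicates 2 and 3 still lay above the wild-type libraries. Without replicate 1, 10 of the 21 were higher, none lower and the median was 0.41 log2, and Ccl2 rose by 1.82 log2 (limma adjusted p = 3.12e-05). Tnf, tumour necrosis factor, had 16.8, 1.05 and 1.27 TPM in knockout libraries, against 0.64, 0.79 and 0.69 TPM in wild-type libraries, and Cxcl2, which attracts neutrophils, had 7.47, 0.57 and 0.23 TPM in knockout libraries, against 0, 0.08 and 0.3 TPM in wild-type libraries. Ccl5 had 63.5, 6.63 and 4.12 TPM in knockout libraries, against 6.89, 4.34 and 4.5 TPM in wild-type libraries and did not pass. In a fit of the 6 libraries alone, 5 of the 21 were higher.

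**Figure D4:**
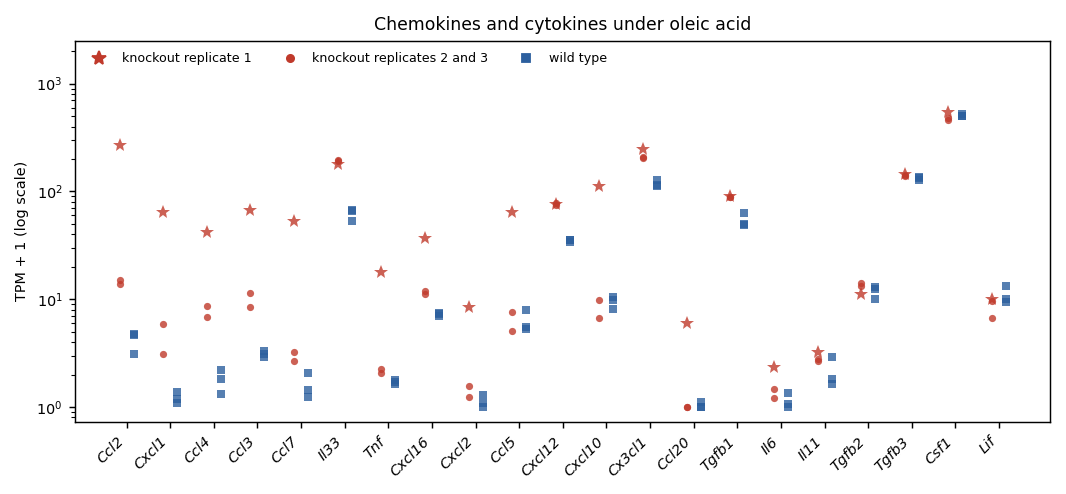
TPM + 1 on a log axis of the 21 tested chemokine and cytokine genes in knockout (red) and wild-type (blue) libraries under oleic acid, with knockout replicate 1 as stars. The star lies far above the other knockout points for Ccl2, Cxcl1, Ccl7, Tnf, Cxcl10 and Ccl5, and beside them for Il33, Cxcl12 and Tgfb1.

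Complement genes were higher too. Of 14 tested, 11 were higher, 1 lower and 2 did not pass, with a median of 0.63 log2. C1s1, a protease of the first complement complex, had 136, 91.1 and 91.7 TPM in knockout libraries, against 32.1, 27.6 and 31.1 TPM in wild-type libraries. C1ra, its partner, had 51.1, 36.6 and 37.9 TPM in knockout libraries, against 19.8, 18.5 and 19.7 TPM in wild-type libraries. Both rose, by 1.76 and 1.06 log2. C1qa, made by microglia, had 280.2, 235 and 239 TPM in knockout libraries, against 169, 208 and 173 TPM in wild-type libraries, and rose by 0.46 ± 0.11 log2 (limma adjusted p = 0.00337). Markers of microglia moved beside these genes: of 19 tested, 11 were higher, none lower and 8 did not pass, with a median of 0.40 log2, led by Itgam, the complement receptor chain, with 16, 11.5 and 12 TPM in knockout libraries, against 6.79, 6.39 and 7.08 TPM in wild-type libraries. Cx3cr1, the fractalkine receptor of microglia, had 24.4, 20.8 and 21.9 TPM in knockout libraries, against 13.9, 14.1 and 14.4 TPM in wild-type libraries. The part of microglial RNA in the chemokine and complement results was not tested. A fit of the 6 libraries alone called 7 of the microglial markers higher. Of 15 markers of lipid-handling phagocytes, 7 were higher, 3 lower and 5 did not pass, with a median of 0.24 log2, with Spp1 above and Gpnmb higher by 0.68 log2, while Lgals3 and Cst7 fell by 0.57 and 0.93 log2.

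Interferon and antigen presentation genes did not share that direction. Of 24 interferon-stimulated genes, 3 were higher, 5 lower and 16 did not pass, with a median of -0.15 log2. These counts lie near the shares over all tested genes (14.7% higher and 18.5% lower), so they do not set the list apart. Bst2, tetherin, had 183, 121 and 122 TPM in knockout libraries, against 259.6, 286 and 234 TPM in wild-type libraries, and fell by 0.89 ± 0.13 log2 (limma adjusted p = 1.25e-05), and Ifi27 had 207, 153 and 165 TPM in knockout libraries, against 295, 292 and 280.3 TPM in wild-type libraries, and fell by 0.73 ± 0.09 log2 (limma adjusted p = 1.55e-06). Mx2 was higher, by 0.94 log2. Isg15 had 89, 24.1 and 22.5 TPM in knockout libraries, against 33.1, 29.1 and 21.2 TPM in wild-type libraries and Ifit3 had 94.9, 31 and 28 TPM in knockout libraries, against 47.7, 34 and 37.1 TPM in wild-type libraries. In both genes knockout replicate 1 was the highest of all 6 libraries and the other knockout libraries lay among or below the wild-type ones. Without it, 1 was higher and 11 were lower, with a median of -0.45 log2, and without knockout replicate 3 the median was 0.07. Of 15 genes of MHC class I and antigen processing, none was higher, 8 lower and 7 did not pass, with a median of -0.37 log2. Tap2, a peptide transporter, had 35.2, 28.9 and 28.5 TPM in knockout libraries, against 39.7, 43.8 and 37.5 TPM in wild-type libraries, and fell by 0.38 ± 0.08 log2 (limma adjusted p = 0.00111), and Psmb9, of the immunoproteasome, fell by 0.73 log2. Class I genes are near-identical and can share reads. The count of lower genes was 5 without knockout replicate 2, 3 without knockout replicate 3, 5 without wild-type replicate 2, 5 with median-ratio scaling and 0 in a fit of the 6 libraries alone.

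Extracellular matrix genes were higher in the knockout. Of 18 collagen chains, 11 were higher, 1 lower and 6 did not pass, with a median of 0.48 log2. Col16a1 had 78, 97.8 and 91 TPM in knockout libraries, against 34.5, 34.2 and 35.3 TPM in wild-type libraries, and rose by 1.33 ± 0.08 log2 (limma adjusted p = 9.21e-11). Col5a1, a chain of fibrillar type V collagen, had 93.8, 116 and 117 TPM in knockout libraries, against 54.8, 61.7 and 56.7 TPM in wild-type libraries. Col6a1, of type VI, had 146, 164 and 166 TPM in knockout libraries, against 94.5, 103 and 99.3 TPM in wild-type libraries. Col6a3, a long chain of type VI collagen, had 4.68, 7.8 and 9.19 TPM in knockout libraries, against 0.41, 0.51 and 0.17 TPM in wild-type libraries, and rose by 2.56 ± 0.25 log2 (limma adjusted p = 7.22e-08). The chains of type I collagen parted: Col1a1 rose by 2.06 log2 while Col1a2 had 57.5, 66.1 and 71.1 TPM in knockout libraries, against 75.9, 73.8 and 75.8 TPM in wild-type libraries, and fell by 0.21 ± 0.06 log2 (limma adjusted p = 0.0046). Of 15 metalloproteinases and their inhibitors, 10 were higher, 1 lower and 4 did not pass, with a median of 0.58 log2. Mmp2, gelatinase A, had 58, 66.1 and 67.2 TPM in knockout libraries, against 16.6, 16.8 and 16.2 TPM in wild-type libraries, and rose by 1.88 ± 0.07 log2 (limma adjusted p = 1.23e-14). Mmp15 was the lower one, at -0.81 log2. Of 14 markers of mural cells and fibroblasts tested, 8 were higher, 1 lower and 5 did not pass, with a median of 0.44 log2, among them Dcn, decorin, with 43.7, 30.7 and 29 TPM in knockout libraries, against 15.4, 9.53 and 15.1 TPM in wild-type libraries, and Lum, lumican, with 3.98, 2.16 and 2.35 TPM in knockout libraries, against 0.67, 0.55 and 0.73 TPM in wild-type libraries. Of 9 meningeal markers tested, 5 were higher, 1 lower and 3 did not pass, with a median of 0.35 log2, and Slc47a1 and Slc6a13 were listed at 0. Summed, the meningeal markers went the other way, at 5179 to 5773 TPM in knockout and 6726 to 7894 TPM in wild-type libraries, nearly all of it Igfbp2, the lower one, at -0.39 log2. Aldh1a2, the retinoic acid enzyme of meninges, had 2.09, 2.2 and 2.3 TPM in knockout libraries, against 0.29, 0.16 and 0.22 TPM in wild-type libraries. Col1a1, Col1a2 and Col3a1 are members of the collagen and fibroblast lists alike, and the part of fibroblast or meningeal RNA in the matrix result was not tested. In a fit of the 6 libraries alone, 5 of the fibroblast markers were higher.

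Contractile genes were mixed. Of 11 tested, 4 were higher, 3 lower and 4 did not pass, with a median of 0.05 log2, a median that turned to -0.02 without knockout replicate 2. Tpm1 and Tpm2, tropomyosins, rose by 0.62 and 0.59 log2, and Cnn1, calponin, had 202, 254 and 204 TPM in knockout libraries, against 299, 309 and 297 TPM in wild-type libraries, and fell by 0.46 ± 0.07 log2 (limma adjusted p = 2.21e-05). Acta2 and Tagln differed by 0.17 and 0.02 log2 and did not pass.

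All 26 cell cycle genes tested were higher in the knockout, with a median of 1.10 log2, where 14.7% of all tested genes were. They span the phases: Mcm2, Mcm5 and Mcm6 of the replicative helicase and Pcna, the clamp of DNA polymerases, rose by 0.44 to 0.64 log2 together with Rrm2, while the other 21 rose by 0.69 to 2.08 log2. Ccnb2, cyclin B2, had 61.1, 63.3 and 61.8 TPM in knockout libraries, against 28.6, 27.2 and 28.6 TPM in wild-type libraries, and rose by 1.12 ± 0.05 log2 (limma adjusted p = 9.43e-13). Ube2c, the conjugating enzyme of the anaphase-promoting complex, had 123, 143 and 116 TPM in knockout libraries, against 53.3, 57.1 and 49.4 TPM in wild-type libraries, and rose by 1.24 ± 0.06 log2 (limma adjusted p = 8.4e-12). Cdc20, the activator of that complex, had 106, 131 and 116 TPM in knockout libraries, against 48.8, 58.3 and 45.5 TPM in wild-type libraries, and rose by 1.20 ± 0.08 log2 (limma adjusted p = 2.5e-10). Plk1, a kinase of mitotic entry and exit, had 58.8, 77 and 67.2 TPM in knockout libraries, against 27.4, 31.5 and 27.4 TPM in wild-type libraries. Kif20a, a motor of cytokinesis, had 51.7, 61.8 and 57.1 TPM in knockout libraries, against 27.6, 28.7 and 25.7 TPM in wild-type libraries. Mki67, the proliferation marker, had 20.2, 25.1 and 23.8 TPM in knockout libraries, against 4.88, 3.78 and 5.51 TPM in wild-type libraries. No gene of the list overlapped between the groups, where 43.2% of all tested genes did not.

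The promoters of Ccnb2, Ube2c and Cdc20 are shown because late cell cycle genes carry a short element, TTTGAA, known as the cell cycle genes homology region, through which they are repressed in resting cells. They are RefSeq sequences of GRCm38.p6 from 250 bases before to 50 after the start, read 5′ to 3′ along the gene, at chr9:70421505-70421804 (Ccnb2, - strand), chr2:164769679-164769978 (Ube2c, + strand), chr4:118437294-118437593 (Cdc20, - strand). Capitals mark each match on either strand, so TTCAAA is the element on the other strand.
Ccnb2: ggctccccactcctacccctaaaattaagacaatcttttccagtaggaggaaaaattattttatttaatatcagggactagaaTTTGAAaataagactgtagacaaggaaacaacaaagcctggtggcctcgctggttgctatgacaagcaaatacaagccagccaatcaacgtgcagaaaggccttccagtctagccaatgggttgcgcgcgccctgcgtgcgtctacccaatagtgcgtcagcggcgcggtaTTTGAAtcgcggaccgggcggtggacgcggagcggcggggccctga
Ube2c: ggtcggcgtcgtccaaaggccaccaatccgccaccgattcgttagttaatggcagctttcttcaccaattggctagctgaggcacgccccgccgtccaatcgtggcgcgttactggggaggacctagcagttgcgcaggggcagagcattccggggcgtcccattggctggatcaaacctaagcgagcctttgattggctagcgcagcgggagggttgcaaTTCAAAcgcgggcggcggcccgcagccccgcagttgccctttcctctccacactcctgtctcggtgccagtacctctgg
Cdc20: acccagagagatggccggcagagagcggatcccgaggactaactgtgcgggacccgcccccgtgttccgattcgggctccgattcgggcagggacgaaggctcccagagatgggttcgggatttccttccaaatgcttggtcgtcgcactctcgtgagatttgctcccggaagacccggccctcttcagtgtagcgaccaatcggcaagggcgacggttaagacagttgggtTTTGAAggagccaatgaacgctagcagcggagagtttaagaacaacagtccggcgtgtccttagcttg
Of 22 cell cycle members with a RefSeq promoter, 13 held the element (59.1%), against 20.2% of 27025 genes. Ccnb2 held 2 copies. A match describes the letters of the window, and these data do not bear on what binds there.

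Stress genes fell into opposite groups. Of 28 genes of the integrated stress and unfolded protein responses, 9 were higher, 7 lower and 12 did not pass, with a median of 0.06 log2. Atf4, the transcription factor of amino acid stress, had 119, 115 and 119.9 TPM in knockout libraries, against 196, 184 and 185 TPM in wild-type libraries, and fell by 0.67 ± 0.06 log2 (limma adjusted p = 1.5e-08). Chac1, which degrades glutathione, had 5.34, 6.76 and 7.18 TPM in knockout libraries, against 26.9, 23.5 and 22.3 TPM in wild-type libraries, and fell by 1.77 ± 0.13 log2 (limma adjusted p = 8.3e-10). Sesn2, Slc3a2, Atf3 and Ppp1r15a fell by 0.75 to 1.43 log2. The serine synthesis genes Phgdh and Shmt2 and asparagine synthetase, Asns, rose by 0.41 to 0.51 log2. Of 18 antioxidant and metallothionein genes, 3 were higher, 9 lower and 6 did not pass, with a median of -0.19 log2. Hmox1, heme oxygenase 1, had 281, 301 and 324 TPM in knockout libraries, against 655, 668 and 619 TPM in wild-type libraries, and fell by 1.10 ± 0.10 log2 (limma adjusted p = 2.17e-08). Mt3, the brain metallothionein, had 1461, 1519 and 1504 TPM in knockout libraries, against 2561, 3123 and 2684 TPM in wild-type libraries, and fell by 0.89 ± 0.08 log2 (limma adjusted p = 1.27e-08). Gpx3, a secreted glutathione peroxidase, had 112, 117 and 116 TPM in knockout libraries, against 31.9, 36.8 and 35.1 TPM in wild-type libraries, the opposite order, and rose by 1.71 ± 0.07 log2 (limma adjusted p = 1.23e-13). Gstm1 and Gsta4 belong to families whose members can share reads, and fell by 0.63 and 0.57 log2.

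Adenosine, which damps neuronal firing, is set by astrocyte enzymes and transporters. Of 11 genes of such enzymes and transporters and of adenosine receptors, 4 were higher, 2 lower and 5 did not pass, with a median of 0.26 log2. Slc29a1, the equilibrative nucleoside transporter, had 249.7, 250.2 and 260.3 TPM in knockout libraries, against 80.2, 108 and 86 TPM in wild-type libraries, and rose by 1.47 ± 0.12 log2 (limma adjusted p = 2.61e-09). Nt5e, the ectonucleotidase CD73 that makes adenosine, had 5.58, 6.68 and 6.38 TPM in knockout libraries, against 1.72, 0.85 and 1.49 TPM in wild-type libraries, and rose by 1.63 ± 0.14 log2 (limma adjusted p = 9.12e-09). Of the receptor genes, Adora1 and Adora2a were lower and Adora2b differed by 0.26 log2, which did not pass. Adora1 had 13.6, 18.3 and 18.9 TPM in knockout libraries, against 30.3, 30.6 and 29.3 TPM in wild-type libraries, and Adora2a, the A2a receptor, had 0.53, 0.57 and 0.42 TPM in knockout libraries, against 1.58, 1.78 and 1.55 TPM in wild-type libraries. Each fell by 0.81 log2, and Adora2a stayed below 2 TPM in all 6 libraries. Adk, adenosine kinase, which clears adenosine in astrocytes, differed by 0.08 log2 and did not pass (limma adjusted p = 0.542).

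Imprinted growth genes changed in opposite directions. Of 16 tested, 7 were higher, 5 lower and 4 did not pass, with a median of 0.04 log2, and the median turned to -0.04 without wild-type replicate 1. H19, the noncoding neighbour of Igf2, had 76.4, 113 and 98.9 TPM in knockout libraries, against 33.4, 32.8 and 29.7 TPM in wild-type libraries, and rose by 1.54 ± 0.10 log2 (limma adjusted p = 2.15e-10). Dlk1 and Grb10 rose by 1.06 and 1.04 log2. Peg10, which is expressed from the paternal allele, had 11.8, 20 and 19.3 TPM in knockout libraries, against 51.9, 41.9 and 51.8 TPM in wild-type libraries, and fell by 1.49 ± 0.16 log2 (limma adjusted p = 1.93e-07), and Mest, of the same kind, had 27.5, 34.2 and 36.6 TPM in knockout libraries, against 111, 96.2 and 111 TPM in wild-type libraries.

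Transcription factors that mark brain regions differed between the groups. This runs beside every result above, and its part in them was not tested. Of 18 midbrain and anterior hindbrain factors tested, 12 were higher, 3 lower and 3 did not pass, with a median of 0.95 log2. Pax8 had 5.46, 5.38 and 4.79 TPM in knockout libraries, against 0.15, 0.36 and 0.25 TPM in wild-type libraries, and rose by 2.31 ± 0.16 log2 (limma adjusted p = 3.28e-10). Irx3 had 32.2, 32.6 and 32.5 TPM in knockout libraries, against 12.6, 14.7 and 14 TPM in wild-type libraries, and Irx2 had 41.9, 49.3 and 46 TPM in knockout libraries, against 14.1, 12.8 and 19.6 TPM in wild-type libraries. Like Irx1, they were higher in every knockout library. En1 had 36.8, 42.4 and 39.5 TPM in knockout libraries, against 12.6, 18 and 17.5 TPM in wild-type libraries, and rose by 1.26 ± 0.11 log2 (limma adjusted p = 1.55e-08), and Gbx2, which sets the anterior hindbrain, had 15.4, 17.9 and 19.5 TPM in knockout libraries, against 5.18, 5.63 and 5.24 TPM in wild-type libraries. En2 had 109.6, 142 and 137 TPM in knockout libraries, against 93.7, 92.6 and 99.1 TPM in wild-type libraries, and rose by 0.43 ± 0.12 log2 (limma adjusted p = 0.00615), the smallest rise of the called factors in this list. The hindbrain gene Hoxa2 had 3.59, 3.59 and 3.47 TPM in knockout libraries and Hoxb2 had 2.09, 1.21 and 1.53 TPM. Both were listed at 0 in all 3 wild-type libraries, so no fold is given. Of the 4 HOX and hindbrain factors tested, 3 were higher and 1 lower. Egr2, also an immediate early gene, had 3.24, 4.36 and 3.86 TPM in knockout libraries, against 11.7, 10.2 and 9.99 TPM in wild-type libraries, and was lower. Without a filter on low values, 13 of 16 were higher, but 11 of the 16 stayed under 1 TPM in all 6 libraries. Of 17 telencephalic factors tested, 5 were higher, 9 lower and 3 did not pass, with a median of -0.34 log2. Lhx2 had 19.7, 20.9 and 23.7 TPM in knockout libraries, against 70.8, 64.8 and 70.7 TPM in wild-type libraries, and Nr2e1, a factor of forebrain neural stem cells, had 8.03, 8.73 and 7.75 TPM in knockout libraries, against 21.5, 21.2 and 22.5 TPM in wild-type libraries. Six3, a factor of the anterior forebrain, had 14.5, 15.7 and 18.4 TPM in knockout libraries, against 37, 41.4 and 37.7 TPM in wild-type libraries. These fell by 1.64, 1.31 and 1.21 log2, and in each the groups did not overlap. Those that were higher included Dlx5, Nr2f2, Nr2f1 and Nkx2-1, by 0.56 to 1.38 log2. Both groups thus expressed forebrain and midbrain or hindbrain factors, in different proportions. The regional makeup of the cultures and the genotype cannot be told apart.

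The regional factors also differed between wild-type groups. For En2, knockout libraries had 109.6, 142 and 137 TPM under oleic acid, 112, 108 and 112 TPM untreated, 40.3, 54.2 and 51.2 TPM with palmitic acid and 56.7, 56.1 and 56.3 TPM with medium from neurons. Wild-type libraries had 93.7, 92.6 and 99.1 TPM under oleic acid, but 1.05, 1.01 and 1.02 TPM untreated, 7.52, 6.9 and 6.99 TPM with palmitic acid and 1.19, 0.87 and 0.95 TPM with medium. En2 thus separated the genotypes by 5.78 log2 in untreated cells and by 0.43 under oleic acid, a difference of -5.35 log2 between the comparisons (limma adjusted p = 1.9e-15). Nr2e1 and Lhx2 were lower in knockout in all 4 conditions. Among wild-type libraries Nr2e1 had 21.2 to 22.5 TPM under oleic acid, against 40.1 to 42.6 TPM untreated. Treatment and regional makeup cannot be told apart among the wild-type groups.

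**Figure D5:**
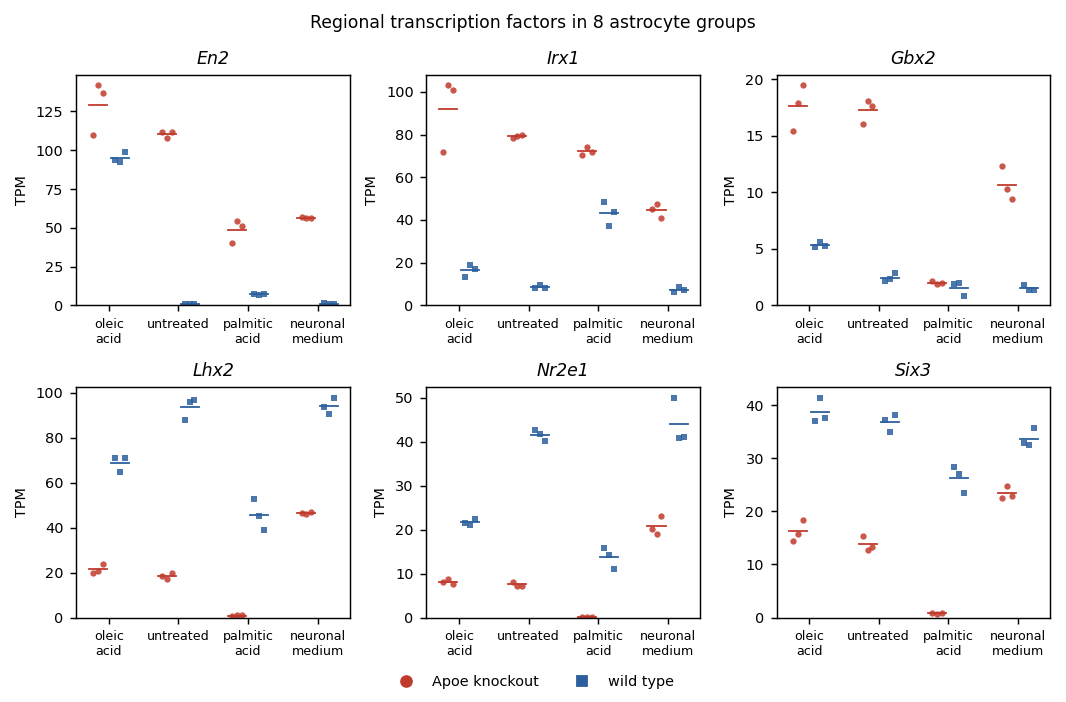
TPM of 6 regional transcription factors in knockout (red circles) and wild-type (blue squares) astrocytes in 4 conditions, with a point per library and lines at the means. En2 is high in knockout in every condition and, of the wild-type groups, high under oleic acid alone, while Lhx2, Nr2e1 and Six3 are lower in knockout throughout.

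Genes near Apoe on chromosome 7 were called about as often as genes elsewhere. Within 20 Mb of Apoe, 53 of 420 tested genes were higher and 71 lower (29.5% called), against 33.3% of all genes. Within 5 Mb, 7 of 100 genes changed by at least 2-fold (7%), against 4.07% of all genes. Cadm4, a cell adhesion molecule 4.78 Mb from Apoe (chr7:24482023-24504539), had 218, 229 and 224 TPM in knockout libraries, against 457, 542 and 465 TPM in wild-type libraries, and fell by 1.12 ± 0.06 log2 (limma adjusted p = 2.23e-11). It was lower in knockout in the other 3 conditions as well, by 0.66 to 4.94 log2. Fosb, an immediate early gene 0.386 Mb away, had 0.98, 1.29 and 1.14 TPM in knockout libraries, against 14.2, 7.76 and 13.2 TPM in wild-type libraries, and fell by 2.53 ± 0.16 log2 (limma adjusted p = 7.26e-11), but was higher in untreated knockout cells, by 1.19 log2. Lig1, Ssc5d and Plaur rose by 0.80 to 1.22 log2, and Sbk3 fell by 1.21. Of the 124 called genes in the window, 21 were called in the same direction in all 4 conditions (16.9%), against 912 of all 5378 called genes (17.0%).

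The same genotype comparison was made in 3 other conditions with 3 libraries a group and no library in common. All came from the same fit and share its estimate of spread for each gene, so their calls are not independent. The titles of untreated knockout replicate 3 and palmitic acid knockout replicate 3 carry the word mix, which no source used here explains, so whether each is a sample separate from replicates 1 and 2 is unknown. Without each, 3343 genes were higher and 3131 lower untreated, and 2683 higher and 7634 lower with palmitic acid. In untreated cells 3855 genes were higher and 3403 lower (44.9% called, 23.9% higher and 21.1% lower), a split of 3216 to 3912 with median-ratio scaling. With palmitic acid 2941 were higher and 7836 lower (66.7%, 18.2% higher and 48.5% lower), a split of 4522 to 6007 with that scaling and a median over all genes of -0.12 in place of -0.32 log2. With medium from neurons 1964 were higher and 1487 lower (21.4%, 12.2% higher and 9.2% lower), a split of 1272 to 1930 with that scaling. Of the 2383 genes higher under oleic acid, 1338 (56.1%) were higher untreated, 34.7% of the untreated list, and 257 were lower. Of the 2995 lower ones, 1534 (51.2%) were lower untreated, 45.1% of the untreated list. With palmitic acid 634 of the higher genes (26.6%) were higher and 1264 (53.0%) lower, while 1688 of the lower ones (56.4%) were lower and 618 (20.6%) higher, in a comparison where 48.5% of all tested genes were lower. In all 4 conditions, 371 genes were higher and 541 lower. Across the 16161 genes, which are not independent replicates, log2 differences under oleic acid correlated with those in untreated cells at Pearson 0.42, with medium at 0.20 and with palmitic acid at 0.04.

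Gene lists differed between conditions. Of the 26 cholesterol genes, 1 was higher and 22 lower in untreated knockout cells, 22 were higher and 0 lower with palmitic acid and 1 was higher and 5 lower with medium, where median-ratio scaling gave 11 lower. The difference between the palmitic and oleic acid comparisons passed limma's test for all 26. Sqle shows the turn: with palmitic acid it had 64.5, 78.4 and 74.4 TPM in knockout libraries, against 44.2, 45.4 and 42.5 TPM in wild-type libraries (0.70 log2), against -0.93 log2 under oleic acid. Of the 26 cell cycle genes, 21 were higher and 0 lower in untreated cells, none was higher and 26 lower with palmitic acid and none was higher and 17 lower with medium. Ccnb2 had 7.13, 7.06 and 7.77 TPM in knockout libraries, against 37.6, 34.6 and 36.1 TPM in wild-type libraries with palmitic acid. Its genotype difference was 3.27 log2 larger under oleic than palmitic acid (limma adjusted p = 1.64e-18). Of 20 astrocyte function genes, none was higher and 20 lower in untreated cells, none was higher and 19 lower with palmitic acid and none was higher and 15 lower with medium. All 4 comparisons thus had more such genes lower than higher, but 17 of the 20 differed between the oleic acid and the untreated comparison, and the median of that difference was 1.04 log2, smaller falls under oleic acid. Gfap is an example, with 70.6, 71.5 and 70.3 TPM in knockout libraries, against 1080.2, 1206 and 1223 TPM in wild-type libraries untreated and 2.08, 2.44 and 2.56 TPM in knockout libraries, against 324, 269 and 245 TPM in wild-type libraries with palmitic acid.

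Across all genes, the genotype difference under oleic acid departed from that in untreated cells for 4779 genes, 2225 of them positive and 2554 negative (29.6%), a split of 2755 to 1708 with median-ratio scaling. It departed from that with palmitic acid for 9368, 6615 positive and 2753 negative (58.0%), a split of 5435 to 3913 with that scaling. Nr4a1, En2, Wif1 and Col1a2 led the first by p. Wif1, a secreted Wnt inhibitor, had 143, 173 and 183 TPM in knockout libraries, against 175, 148 and 176 TPM in wild-type libraries under oleic acid and 159.9, 158 and 156 TPM in knockout libraries, against 1.52, 1.83 and 2.29 TPM in wild-type libraries untreated. Its genotype difference was -0.01 log2 under oleic acid and 5.79 untreated (limma adjusted p = 2.75e-15 for the difference). Knockout libraries had similar levels in both conditions, and the wild-type libraries were those that differed. Col1a2 had 65.3, 65.7 and 68.2 TPM in knockout libraries, against 404, 406 and 385 TPM in wild-type libraries untreated, -2.57 log2, against -0.21 under oleic acid. The wild-type groups also differ in regional factors such as En2, as given above. Treatment and regional makeup cannot be told apart there, which holds for all differences between comparisons, of genes and of lists. Stmn2, a tubulin-binding protein and a member of the neuronal marker list, Ccnb2, Cnn1 and Serpina3n led the second. Stmn2 had 235, 234 and 217 TPM in knockout libraries, against 243, 236 and 241 TPM in wild-type libraries under oleic acid and 13.7, 14.4 and 15.1 TPM in knockout libraries, against 363, 374 and 374 TPM in wild-type libraries with palmitic acid. Serpina3n had 0.85, 1.07 and 1.13 TPM in knockout libraries, against 63.6, 53.2 and 59.8 TPM in wild-type libraries with palmitic acid and differed by 5.83 log2 between the comparisons. In all 4 genes every knockout library with palmitic acid lay below every knockout library under oleic acid. Those libraries also detected 12057 to 12915 genes at 1 TPM or more, against 14108 to 14177 in knockout libraries under oleic acid, and the part of that in these differences was not tested.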

How the data were processed

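RNA was measured by sequencing in 27 astrocyte libraries in 9 groups of 3, of which 6 libraries (Apoe knockout and wild type, oleic acid) are compared here. The authors deposited gene-level TPM, transcript abundances scaled to a common total per library, which do not keep depth, so no count test, interval or detection floor was possible. HISAT2, StringTie, RSEM and the build mm10 are named per the submitters' processing notes, without versions or order. No source used here says whether counting used the strand. Values of a few list members are not reported here, though list counts hold them.

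Columns were matched to samples by title, and groups were taken from genotype and treatment labels. Values were tested as log2(TPM + 1) with limma 3.58.1 in R 4.3.3, with a mean-variance trend, in 16161 of 53700 genes that reached 1 TPM in at least 3 of 27 libraries. All 9 groups shared 1 estimate of the spread. Benjamini-Hochberg adjustment covered all tested genes, with a threshold of 0.05. Fold changes are on the log2(TPM + 1) scale and understate the change of low genes. The fit was tested on simulated data. Alternatives were median-ratio scaling, a pseudocount of 0.1, no filter, a fit of the compared groups alone, the replicate number as a block, no trend, and leaving out each library. Leaving out X and Y genes, and list counts without each library, were added after seeing the data. Coordinates are of GENCODE M21, found for 97.0% of genes, and promoters are of RefSeq GRCm38.p6.

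The genotype comparison, its gene lists and the rule for named genes were chosen with earlier results of these data known. The rule took the 12 largest rises and falls among genes above the median level without overlap, per list at most 6 members, those of smallest p, up to 6 genes near Apoe, up to 4 genes per difference between comparisons, and all regional transcription factors. The following genes fall outside it and were chosen after their values were seen: Abca1, Abcg1, Acot2, Acta2, Adk, Apoc2, Aqp4, Asns, Ccl2, Ccl5, Ccl7, Clu, Cpt1a, Cxcl1, Cxcl10, Cxcl2, Dgat1, Dgat2, Ebp, Hmgcs1, Idi1, Lcn2, Mcm2, Mcm5, Mcm6, Mki67, Mvk, Pcna, Phgdh, Pltp, Pmvk, Rrm2, S100b, Scd1, Shmt2, Slc1a3, Soat1, Sorl1, Srebf1, Srebf2, Tagln, Tmem97, Tnf and Vldlr.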

Additional observations from a re-analysis of the deposited data

Results flagged for a closer look

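The genotype difference under oleic acid departed from that in untreated cells for 4779 genes, and from that with palmitic acid for 9368 genes, by limma's test of the difference between the comparisons. Among the genes with the largest changes under oleic acid, 5 changed in the opposite direction elsewhere in every library. Igf2 differed by 2.12 log2 between knockout and wild type under oleic acid and by -0.63 log2 in untreated cells, a difference of 2.75 log2 (limma adjusted p = 2.11e-14). Apoa1 differed by -2.82 log2 between knockout and wild type under oleic acid and by 1.04 log2 in untreated cells, a difference of -3.86 log2 (limma adjusted p = 3.96e-10). Nr4a1 differed by -2.76 log2 between knockout and wild type under oleic acid and by 3.70 log2 in untreated cells, a difference of -6.46 log2 (limma adjusted p = 3.04e-15). Spp1 differed by 2.30 log2 between knockout and wild type under oleic acid and by -2.63 log2 in cells given palmitic acid, a difference of 4.93 log2 (limma adjusted p = 1.64e-11). Rgs16 differed by 2.15 log2 between knockout and wild type under oleic acid and by -1.47 log2 in cells given palmitic acid, a difference of 3.62 log2 (limma adjusted p = 2.24e-16). Against palmitic acid, Nr4a1 had 165, 193 and 189 TPM in knockout libraries, against 49.3, 45.7 and 47.9 TPM in wild-type libraries, a genotype difference of 1.91 log2 that lay -4.68 log2 from the one under oleic acid (limma adjusted p = 7.58e-14). The wild-type groups also differ in regional factors, and the part of that in these differences was not tested.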

How the results depend on the processing

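Of 230 named genes past the threshold under oleic acid, 204 passed in every alternative, and none of the 241 named genes changed sign while called. The rule favoured genes of small p or large change in the main fit, so this share does not describe all called genes. The total of 5378 genes past the threshold was 3456 (1629 higher and 1827 lower) in a fit of the 6 oleic acid libraries alone. There 23 named genes no longer passed, and the spread came from those 6 libraries in place of all 27. A fit of the compared groups alone gave 8569 in place of 7258 genes untreated and 3741 in place of 3451 with medium from neurons. With palmitic acid it gave 8716 in place of 10777. Why the total fell under oleic acid was not tested. Without each library in turn the total under oleic acid was 4494 to 4892. It was 5220 of 15609 tested genes without X and Y genes, a setting that drops those genes and says nothing of sex differences in the others. With the replicate number as a block it was 5226 (2307 higher and 2919 lower). Same-numbered libraries deviated with correlations of -0.02, 0.05 and -0.04, which gives no sign that the numbers pair the libraries. Whether such libraries were handled together is not known. For 5 lists the sign of the median rests on single libraries. Smooth muscle genes gave -0.02, -0.01 and -0.00 log2 without knockout replicate 2, wild-type replicate 1 and wild-type replicate 3, and interferon genes 0.07 without knockout replicate 3. Fatty acid uptake genes gave 0.02 and imprinted genes -0.04 without wild-type replicate 1, and endothelial markers -0.05 without knockout replicate 1. TPM hide the depth, so the precision of low values is unknown. The genotypes differ in regional factors and in sex-linked genes, and none of these can be told apart here.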
